A study of Homo sapiens with 17 samples.

Results

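The repeats described here were the copies of endogenous retroviruses of the ERV1 family whose subfamily name begins with MER, such as MER34B-int or MER41A. They were taken from a table of repeat loci by name alone, with no measured value involved: the family had to be exactly ERV1 and the subfamily had to start with MER. This gave 62506 of the 3594049 loci in the table and 111 of its 1080 subfamilies. Of these, 21 subfamilies with 14160 copies were internal parts, whose names end in -int, and 90 with 48346 copies were long terminal repeats (LTRs). No read was assigned to 12919 of the copies, 20.7%, in any library.

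The libraries came from N2102Ep, an established human embryonal carcinoma line, which is a model of 1 cell line only. RIP-seq (RNA immunoprecipitation followed by sequencing) was run on ORF1p and on ORF2p, the 2 proteins encoded by the LINE-1 retrotransposon, in 4 ORF1p RIP and 4 ORF2p RIP libraries. They were set against 3 mock IP libraries, whose descriptions carry the tag mIgG, and 6 total RNA libraries, of which 2 carry the series letter b and 4 the letters bl. The labels name N2102Ep clone 2/A6 as the source of ORF2p RIP, of mock IP and of total RNA, and give the source of the ORF1p RIP libraries only as embryonal, and no allele or treatment other than the pull-down sets the groups apart. The table lists repeats and no genes, so the genes that mark embryonal carcinoma cells were not checked here. No label states that the libraries of a group were separate cultures, so p-values speak of library-to-library spread alone, and that spread may be technical.

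An ERV1 provirus is the remnant of a gammaretrovirus-like infection of the germ line: an internal part that once coded for Gag, Pol and Env lies between an LTR on each side, and the LTR carries the promoter and the polyadenylation signal. Recombination between the LTRs has left most copies as solitary LTRs. Some MER LTRs are known regulatory elements in human cells, among them MER41 LTRs as interferon-inducible enhancers and MER61 LTRs as sites of binding by the tumour suppressor p53. ORF1p is the RNA-binding chaperone of LINE-1 and ORF2p its endonuclease and reverse transcriptase. Both prefer the RNA that encodes them, and ERV RNAs depend on neither for their own copying.

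Of 35116 annotated promoter windows, each from 250 bases before to 50 bases after a gene's start, 126 shared at least 30 bases with a member copy. The windows of PURPL and LOC105376065, both long non-coding RNA genes, are shown because each holds a pair of abutting half-sites for p53 inside a MER61 LTR. The capitals mark these half-sites, found in a search of both strands under the published p53 half-site pattern. PURPL is itself known as a p53-induced RNA. The windows of PLAC4, a gene named for its placental expression, and LINC01515, another long non-coding RNA gene, are 2 of the 3 whose member copy had enough reads to be tested, and there the capitals mark the bases inside member copies. The sequences are RefSeq's, from GRCh38.p14, read 5′ to 3′ on the strand of the gene, and lie at chr5:27472042-27472341 (plus strand, PURPL), chr9:41533108-41533407 (minus strand, LOC105376065), chr21:41185190-41185489 (minus strand, PLAC4) and chr10:65571175-65571474 (plus strand, LINC01515).
PURPL: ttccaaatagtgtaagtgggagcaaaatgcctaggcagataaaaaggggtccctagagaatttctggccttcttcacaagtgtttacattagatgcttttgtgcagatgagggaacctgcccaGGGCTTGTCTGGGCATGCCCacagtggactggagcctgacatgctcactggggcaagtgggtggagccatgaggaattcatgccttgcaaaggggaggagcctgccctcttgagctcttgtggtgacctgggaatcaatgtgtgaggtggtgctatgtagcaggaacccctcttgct
LOC105376065: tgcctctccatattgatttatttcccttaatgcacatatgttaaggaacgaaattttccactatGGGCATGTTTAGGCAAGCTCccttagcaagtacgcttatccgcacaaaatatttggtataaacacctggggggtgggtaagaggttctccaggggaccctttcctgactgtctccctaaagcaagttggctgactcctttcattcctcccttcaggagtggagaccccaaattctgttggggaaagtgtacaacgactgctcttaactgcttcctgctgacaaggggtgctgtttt
PLAC4: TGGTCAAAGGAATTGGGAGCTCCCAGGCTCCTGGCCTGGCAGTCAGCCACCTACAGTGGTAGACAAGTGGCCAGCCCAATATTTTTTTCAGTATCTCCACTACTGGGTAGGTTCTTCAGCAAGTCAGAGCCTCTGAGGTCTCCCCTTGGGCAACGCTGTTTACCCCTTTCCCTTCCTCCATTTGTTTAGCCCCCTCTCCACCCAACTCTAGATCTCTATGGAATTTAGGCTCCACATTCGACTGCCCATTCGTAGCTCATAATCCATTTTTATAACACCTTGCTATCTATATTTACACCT
LINC01515: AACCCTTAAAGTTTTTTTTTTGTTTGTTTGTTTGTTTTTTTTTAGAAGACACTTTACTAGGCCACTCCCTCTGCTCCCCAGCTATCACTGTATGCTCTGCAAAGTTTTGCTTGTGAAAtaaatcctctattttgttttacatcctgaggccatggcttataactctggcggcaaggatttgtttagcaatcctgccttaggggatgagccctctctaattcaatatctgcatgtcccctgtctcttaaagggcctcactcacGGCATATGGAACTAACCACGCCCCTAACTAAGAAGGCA
The half-site pair occupied bases 124 to 143 of the PURPL window, whose bases 33 to 300 lie in a MER61C copy, and bases 65 to 84 of the LOC105376065 window, whose bases 1 to 206 lie in a MER61D copy. A single half-site was found in 6.63% of all windows and in 13 of the 126 windows with a member copy, and a pair in 6 of all windows and in 2 of the 126. These matches are descriptions of the letters and not of binding.

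Levels are given as CPM, the standard per-library scaling of counts, here to the reads in repeats after adjustment with the TMM method, and changes as log2 fold changes with their standard error. A subfamily or locus was called where edgeR's quasi-likelihood test gave a Benjamini-Hochberg adjusted p under 0.05, over everything tested, and the fitted change was at least 2-fold. Libraries held 7693841 to 19670774 reads in repeats. No pair of replicates differed as little as sampling noise, and 2 splits stood out within groups: ORF1p RIP replicate 3 stood apart from the other ORF1p RIP libraries, and the total RNA series b from series bl.

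As a share of all repeat reads, before any scaling, MER-named ERV1 copies were least represented in the pull-downs. They held 1.78%, 1.78%, 1.47% and 1.74% of the reads in ORF1p RIP libraries, 1.59%, 1.62%, 1.66% and 1.65% in ORF2p RIP libraries, 1.95%, 2.07% and 2.05% in mock IP libraries, and a lowest of 2.10%, median of 2.25% and highest of 2.32% in total RNA. Every library of either pull-down lay below every mock IP and total RNA library. The means were 1.69% ± 0.145 (SD, n = 4) for ORF1p RIP, 1.63% ± 0.0279 (SD, n = 4) for ORF2p RIP, 2.03% ± 0.0628 (SD, n = 3) for mock IP and 2.24% ± 0.0739 (SD, n = 6) for total RNA. Against mock IP, an exact two-sided permutation test gave p = 0.0571 for each pull-down, the smallest p that 4 against 3 libraries allow (adjusted p = 0.0735 over 18 tests of shares). Against total RNA the exact permutation p was 0.00952 for each (adjusted p = 0.0286), but after TMM scaling the adjusted p was 0.0857 for ORF1p RIP and 0.24 for ORF2p RIP. The difference between ORF2p RIP and ORF1p RIP was within the spread of the libraries (exact permutation p = 0.486, adjusted p = 0.583).

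Split by kind of copy, the LTRs were below mock IP in both pull-downs and the internal parts of ORF1p RIP were not. LTR copies held 0.907% ± 0.106 of repeat reads in ORF1p RIP (SD, n = 4), 0.951% ± 0.0133 in ORF2p RIP (SD, n = 4), 1.26% ± 0.0209 in mock IP (SD, n = 3) and 1.2% ± 0.163 in total RNA (SD, n = 6). Internal parts held 0.783% ± 0.0456, 0.679% ± 0.0345, 0.770% ± 0.0445 and 1.03% ± 0.129 in the same order of groups and numbers of libraries. The libraries of both pull-downs stayed below those of mock IP for LTRs, and the ORF1p RIP and mock IP libraries overlapped for internal parts. For LTRs the exact permutation p against mock IP was 0.0571 for each pull-down (adjusted p = 0.0735), and for internal parts in ORF1p RIP it was 0.743 (adjusted p = 0.787). This contrast rested on single loci. Without the leading copy of each subfamily, internal parts held 0.585%, 0.601%, 0.528% and 0.576% in ORF1p RIP against 0.610%, 0.683% and 0.658% in mock IP. The groups then did not overlap, and the difference was -0.0776 points (adjusted p = 0.0735, exact permutation test). The total RNA series also differed in both measures, with LTR copies at 1.41% and 1.42% in series b and 1.08% to 1.12% in series bl, and internal parts at 0.853% and 0.906% in series b and 1.02% to 1.17% in series bl.

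All 111 subfamilies passed the filter on low counts. Against mock IP, 5 were called higher and 16 lower in ORF1p RIP, where 7.33% and 8.72% of all 1078 tested subfamilies were, and the median change over the members was -0.24 against 0.02 over all. In ORF2p RIP, 2 were called higher and 1 lower, where 6.68% and 1.48% of all were, and the median was -0.15 against -0.03 over all. ORF2p RIP over ORF1p RIP gave 12 higher and 4 lower, where 12.3% and 6.59% of all were, with a median of 0.11 against -0.04. The comparisons of the pull-downs with mock IP share the 3 mock IP libraries, so they are not independent of each other. Other ERV1 subfamilies gave 9 higher and 40 lower of 186 in ORF1p RIP over mock IP, 9 and 9 in ORF2p RIP over mock IP, and 41 and 12 in ORF2p RIP over ORF1p RIP. The libraries of the 2 groups did not overlap in any member subfamily that was called. Calling by p and by size favours such subfamilies, so this is a description only. A level in bulk libraries such as these is taken over all cells together, so in a level RNA present in fewer cells and less RNA per cell cannot be told apart. The calls compare what was recovered in each pull-down with its reference.

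**Figure D1:**
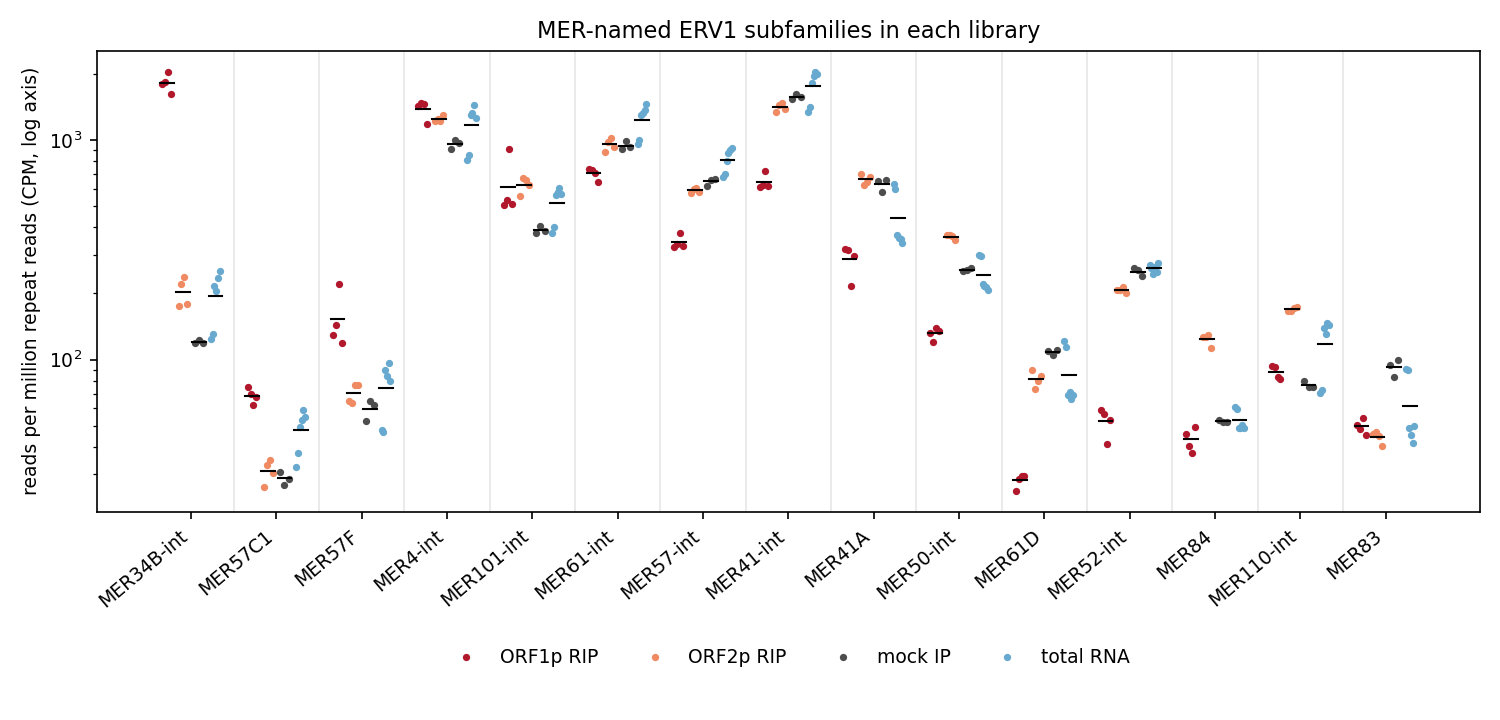
CPM (log axis) of 15 MER-named ERV1 subfamilies in each library, with the 4 groups side by side (ORF1p RIP and ORF2p RIP, then mock IP and then total RNA); each point is a library and each black line a group mean. MER34B-int is far higher in the 4 ORF1p RIP libraries than in the others, MER52-int and MER61D are far lower, and MER84 is highest in the 4 ORF2p RIP libraries.

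Among the internal parts, 1 of 21 was called higher and 3 lower in ORF1p RIP over mock IP, 1 higher and 0 lower in ORF2p RIP over mock IP, and 3 higher and 1 lower in ORF2p RIP over ORF1p RIP. In ORF1p RIP over mock IP that was 4.76% and 14.3%, against 7.33% and 8.72% of all subfamilies. In ORF2p RIP over mock IP it was 4.76% and 0%, against 6.68% and 1.48%. In ORF2p RIP over ORF1p RIP it was 14.3% and 4.76%, against 12.3% and 6.59%. MER52-int, the internal part of the MER52 proviruses, had 58.7, 56.8, 41.2 and 52.9 CPM in ORF1p RIP, 208, 208, 214 and 201 CPM in ORF2p RIP, 259.8, 255 and 239 CPM in mock IP, and a lowest of 246, median of 263 and highest of 274 CPM in total RNA. All ORF1p RIP libraries lay far below every other library, with no overlap. The log2 change in ORF1p RIP over mock IP was -2.26 ± 0.09 (adjusted p = 6.24e-11), and it was -2.18 without the leading copy. MER41-int, the internal part flanked by MER41 LTRs, had 611, 622, 718 and 619 CPM in ORF1p RIP, 1337, 1449, 1474 and 1383 CPM in ORF2p RIP, 1534, 1611 and 1570.3 CPM in mock IP, and 1338, 1892 and 2044 CPM as the lowest, median and highest in total RNA. The ORF1p RIP libraries again lay apart below the rest, at -1.29 ± 0.13 against mock IP (adjusted p = 7.79e-07), and at -0.73 without its leading copy.

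MER84-int, the third internal part called lower, had 9.15, 6.48, 3.33 and 6.56 CPM in ORF1p RIP and 21.1, 21.0 and 17.96 CPM in mock IP. The groups did not overlap. The change was -1.62 ± 0.24 (adjusted p = 3.3e-05), and it was -1.12 without its leading copy.

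The changes of MER57-int and MER4-int in ORF1p RIP over mock IP were short of 2-fold. MER57-int had 325, 337, 377 and 328 CPM in ORF1p RIP, 575, 597, 605 and 578 CPM in ORF2p RIP and 619, 659 and 667 CPM in mock IP, a change of -0.92 (adjusted p = 1.25e-06). MER4-int was higher in ORF1p RIP by 0.53 ± 0.17 (adjusted p = 0.0142), at 1426, 1471, 1458 and 1186 CPM against 908, 995 and 965 CPM in mock IP. MER50-int had 370.1, 368, 363 and 350.3 CPM in ORF2p RIP, 132, 120.0, 139 and 135 CPM in ORF1p RIP and 253, 256 and 261 CPM in mock IP, so the pull-downs fell on opposite sides of mock IP. Its log2 change of ORF2p RIP over ORF1p RIP was 1.46 (adjusted p = 2.51e-08). MER61-int and MER4B-int were not called in any comparison of the pull-downs with mock IP or with each other.

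Of the 90 LTR subfamilies, 4 were called higher and 13 lower in ORF1p RIP over mock IP, 1 and 1 in ORF2p RIP over mock IP, and 9 and 3 in ORF2p RIP over ORF1p RIP. In ORF1p RIP over mock IP that was 4.44% and 14.4%, against 7.33% and 8.72% of all subfamilies. In ORF2p RIP over mock IP it was 1.11% each way, against 6.68% and 1.48%. In ORF2p RIP over ORF1p RIP it was 10% and 3.33%, against 12.3% and 6.59%. MER61D, an LTR of the p53-bound group, had 25.3, 28.6, 29.4 and 29.6 CPM in ORF1p RIP, 89.9, 73.3, 80.0 and 84.0 CPM in ORF2p RIP and 109.6, 105 and 110.4 CPM in mock IP, and a lowest of 66.1, median of 69.9 and highest of 122 CPM in total RNA. No ORF1p RIP library came near any other library, and the change over mock IP was -1.94 ± 0.20 (adjusted p = 7.54e-07). MER41A, an LTR of the interferon-responsive group, had 318, 316, 215 and 296 CPM in ORF1p RIP, 699, 623, 644 and 678 CPM in ORF2p RIP and 649.7, 579.9 and 654 CPM in mock IP. Its change was -1.13 ± 0.21 in ORF1p RIP over mock IP (adjusted p = 0.000238) and 1.21 in ORF2p RIP over ORF1p RIP. Without leading copies, no MER41 subfamily, MER41A among them, was called in either of these comparisons. MER57C1 went the other way, with 74.7, 69.7, 62.4 and 67.5 CPM in ORF1p RIP, 26.4, 33.1, 35 and 30.5 CPM in ORF2p RIP, 30.9, 26.9 and 28.6 CPM in mock IP, and a lowest of 32.5, median of 51.4 and highest of 59.1 CPM in total RNA. Every ORF1p RIP library lay above every other library, with total RNA between ORF1p RIP and mock IP. The change was 1.25 ± 0.18 in ORF1p RIP over mock IP (adjusted p = 2.23e-05), and 1.55 without the leading copy.

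ORF2p RIP stood out above mock IP in MER84, an LTR, and MER110-int. MER84 had 126, 127, 129 and 113 CPM in ORF2p RIP, 46.1, 40.4, 37.5 and 49.3 CPM in ORF1p RIP, 53, 52.2 and 52.2 CPM in mock IP, and 48.6, 49.6 and 60.7 CPM as the lowest, median and highest in total RNA. The change in ORF2p RIP over mock IP was 1.24 ± 0.11 (adjusted p = 5.86e-07). MER110-int had 167, 166, 171 and 173 CPM in ORF2p RIP, 93.2, 92.2, 83.3 and 81.7 CPM in ORF1p RIP, 80.0, 74.8 and 75.3 CPM in mock IP, and 70.5, 135 and 147 CPM as the lowest, median and highest in total RNA. Its change in ORF2p RIP was 1.14 ± 0.22 over mock IP (adjusted p = 0.0011), and 0.70 without the leading copy. Over total RNA it was 0.53 (adjusted p = 0.03), short of 2-fold. MER83, the single member called lower in ORF2p RIP over mock IP, had 46.0, 46.8, 44.7 and 40.3 CPM in ORF2p RIP, 50.6, 48.5, 54.2 and 45.3 CPM in ORF1p RIP, 94.0, 83.0 and 100.02 CPM in mock IP, and 41.6, 49.5 and 91.0 CPM as the lowest, median and highest in total RNA. Both pull-downs lay below mock IP and overlapped total RNA. The change in ORF2p RIP was -1.05 ± 0.24 (adjusted p = 0.00311), and without mock IP replicate 3 it was -0.99 (adjusted p = 0.0153), short of 2-fold.

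Grouped by MER number, the 7 MER41 subfamilies had a median change of -0.67 in ORF1p RIP over mock IP with 2 called lower. In ORF2p RIP over mock IP their median was 0.07 with none called. Without leading copies these medians were -0.21 and -0.17, with none called in either. The 13 MER4 subfamilies had 3 called lower in ORF1p RIP over mock IP and a median of -0.19. The 12 MER57 subfamilies had 2 called higher and 1 lower with a median of -0.17. The 10 MER34 subfamilies had 1 called higher, MER34B-int, with a median of -0.11. Over all subfamilies, 7.33% were called higher and 8.72% lower in ORF1p RIP over mock IP, and 6.68% and 1.48% in ORF2p RIP over mock IP. Groups this small cannot be told from those shares by their counts. Without leading copies, MER4 and MER57 each had 1 called higher and 1 lower in ORF1p RIP over mock IP, and MER34 had none. The medians were then -0.12 for MER4, 0.05 for MER57 and -0.15 for MER34. No group by number had a member called lower in ORF2p RIP over mock IP except that of MER83.

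Set against total RNA, 4 members were called higher and 10 lower in ORF1p RIP, where 9.09% and 8.26% of all tested subfamilies were, and 2 and 1 in ORF2p RIP, where 5.1% and 1.3% were. In mock IP over total RNA, edgeR called 0 members higher and 0 lower, where 0.742% and 0% of all were, and DESeq2 likewise called 0 in each direction. An unadjusted p under 0.05 was reached there by 41 of the 111 members in edgeR's test, with fitted changes short of 2-fold. Over all repeats, 309 of 1078 subfamilies reached it in the same test. MER41G, an LTR of the MER41 group, was higher than in total RNA in both pull-downs, with 11.5, 15.9, 21.1 and 12.6 CPM in ORF1p RIP, 11.8, 17.2, 12.4 and 19.0 CPM in ORF2p RIP, and a lowest of 3.48, median of 5.69 and highest of 8.37 CPM in total RNA. The fitted change was 1.41 for each, and the pull-downs overlapped each other. Over mock IP, no MER41 subfamily was called higher in either pull-down, and the largest change in the group was 0.70 in each. In mock IP over total RNA the largest change in the group was also 0.70 and was not called. Without leading copies, no MER41 subfamily was called higher in ORF2p RIP over total RNA.

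Much of the signal of some subfamilies came from 1 locus. The leading copy, the one with the most reads over all libraries together, held over 50% of the reads of its subfamily in 5 subfamilies in ORF1p RIP, 7 in ORF2p RIP, 5 in mock IP and 9 in total RNA. Without the leading copy of each subfamily, 3 members were called higher and 7 lower in ORF1p RIP over mock IP, 2 and 1 in ORF2p RIP over mock IP and 6 and 3 in ORF2p RIP over ORF1p RIP. Of all 1071 subfamilies tested in that way, 4.48% were called higher and 4.95% lower in ORF1p RIP over mock IP, 4.01% and 1.12% in ORF2p RIP over mock IP, and 7% and 4.86% in ORF2p RIP over ORF1p RIP. The copies at these loci are described apart below, with the positions in hg38.

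**Figure D2:**
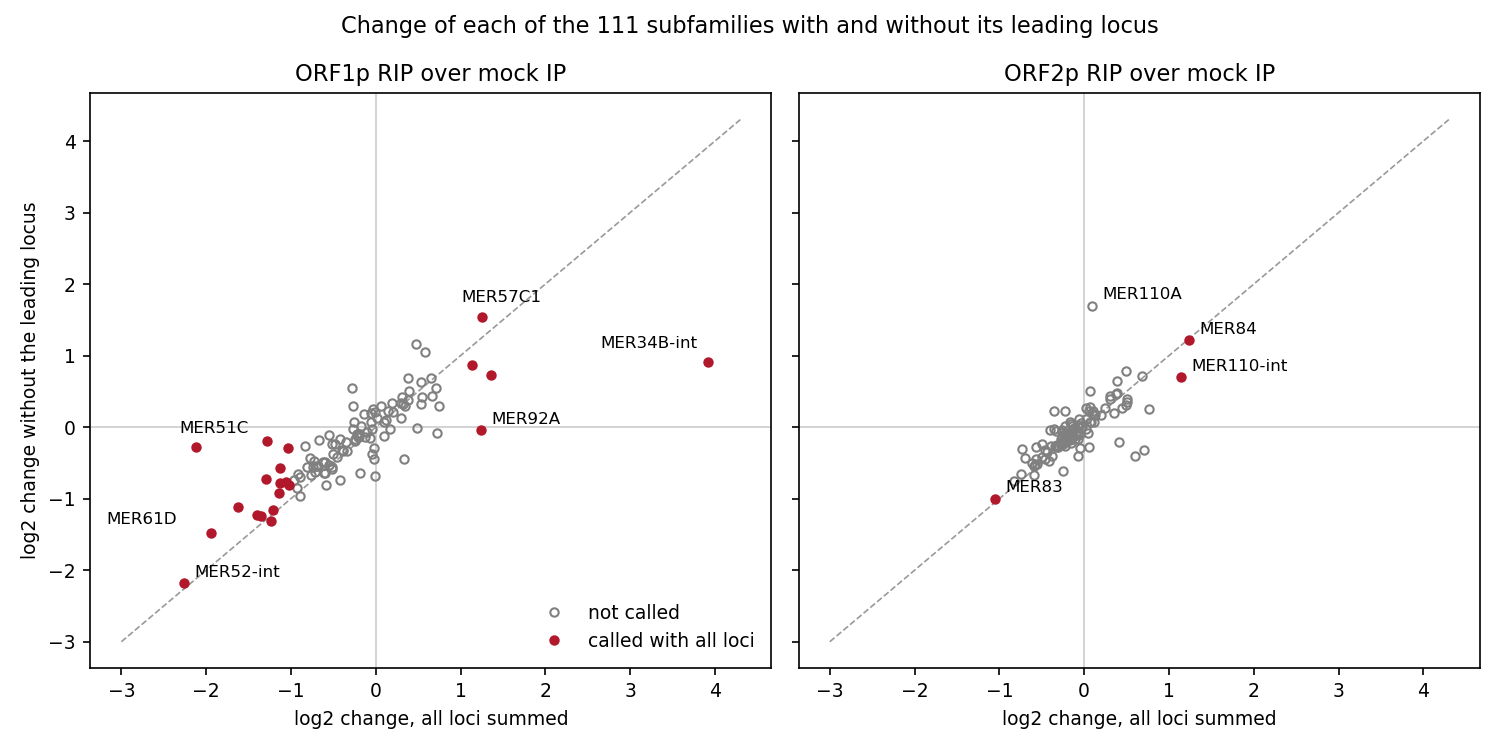
Fitted log2 change of each member subfamily with all loci summed (horizontal axis) and without its leading locus (vertical axis), for ORF1p RIP over mock IP (left) and ORF2p RIP over mock IP (right); filled points were called, open points were not, and points on the dashed line do not move. In ORF1p RIP, MER34B-int lies at 3.92 and 0.91 and MER52-int at -2.26 and -2.18. The 2 panels share the 3 mock IP libraries.

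MER34B-int rested on 1 copy on chromosome 8, bases 100919702 to 100920019, inside the gene span of YWHAZ, which codes for a 14-3-3 adaptor protein, 3179 bases in from the lower end of that span. It had 1657, 1679, 1854 and 1474 CPM in ORF1p RIP, 82.9, 133, 142 and 90.5 CPM in ORF2p RIP, 36.7, 41.1 and 40.6 CPM in mock IP, and 56.3, 102 and 145 CPM as the lowest, median and highest in total RNA. Each ORF1p RIP library held more than 10 times as much as any other library. The change in ORF1p RIP was 5.40 ± 0.39 over mock IP (adjusted p = 6.31e-10), and that in ORF2p RIP was 1.51 over mock IP (adjusted p = 0.000733). For MER34B-int as a whole the change in ORF1p RIP over mock IP was 3.92 ± 0.25 (adjusted p = 5.88e-09), and without this copy it was 0.91. Reads of a repeat inside a gene span can come from the gene's own RNA, and the table does not separate the 2 sources.

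The MER41-int copy on chromosome X, bases 122227788 to 122231275, behaved in the opposite way. It lies in no annotated gene span, and its nearest gene, LOC101928359, is 190731 bases away. It had 3.48, 3.49, 5.50 and 2.23 CPM in ORF1p RIP, 498, 583, 557 and 497 CPM in ORF2p RIP, 534, 548 and 530.3 CPM in mock IP, and 369.9, 683 and 754 CPM as the lowest, median and highest in total RNA. ORF1p RIP held almost none of an RNA that all other libraries held at a high level. The change in ORF1p RIP over mock IP was -7.19 ± 0.36 (adjusted p = 1.43e-11), and in ORF2p RIP over mock IP it was -0.01 (adjusted p = 0.984). With the 6 other member copies of this stretch, between bases 122220748 and 122247854, the sums were 4.33, 5.36, 6.46 and 3.26 CPM in ORF1p RIP, 677, 779, 756 and 667 CPM in ORF2p RIP and 815, 845 and 829.6 CPM in mock IP.

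Other runs of neighbouring copies repeated that pattern, and they were picked out after their values had been seen. Sums over runs and spans, here and above, count the copies with at least 100 reads over all libraries. On chromosome X between bases 84938747 and 84958316, 7 MER4B-int copies and the 2 MER4E1 LTRs that flank them summed to 3.74, 2.25, 4.51 and 3.76 CPM in ORF1p RIP, 339.6, 315, 322 and 329 CPM in ORF2p RIP and 197, 220.5 and 227 CPM in mock IP. Within the span of the long non-coding RNA gene LOC124905212 and just before it, 5 LTR copies summed to 1.6, 2.56, 2.21 and 2.47 CPM in ORF1p RIP, 199.8, 161, 166 and 197 CPM in ORF2p RIP and 193, 206 and 196 CPM in mock IP. Both stretches were close to empty in ORF1p RIP and well filled in the other pull-down. The LTR in the second, a MER51C copy with 0.777 CPM in ORF1p RIP on average and 74.9 in mock IP, led its subfamily, whose change in ORF1p RIP over mock IP was -2.12 with it and -0.28 without it. The MER61-int copy on chromosome 2, bases 187655491 to 187659192, had 0.747, 1.25, 0.805 and 0.570 CPM in ORF1p RIP, 196, 214, 215 and 183 CPM in ORF2p RIP and 76.6, 102 and 83.1 CPM in mock IP. Its change over mock IP was -6.69 ± 0.40 in ORF1p RIP (adjusted p = 8.13e-11) and 1.21 ± 0.33 in ORF2p RIP (adjusted p = 0.00446). Mock IP was itself below total RNA at this copy, by -1.2 to -0.99 with 1 library left out at a time. In the same fits, ORF1p RIP over total RNA was -8.02 to -7.61 and ORF2p RIP over ORF1p RIP was 7.74 to 8.15.

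At some loci no read at all was assigned in ORF1p RIP. A MER34B copy on chromosome 16, bases 9701190 to 9701535, had 0 CPM in every ORF1p RIP library, 19.1, 14.5, 21.9 and 16 CPM in ORF2p RIP, and 22.5, 17.3 and 23.4 CPM in mock IP. Against a floor of 3 reads over the 4 libraries, it was at least 227-fold lower in ORF1p RIP than in mock IP. A MER57-int copy on chromosome X, bases 98591880 to 98593152, within the span of the non-coding RNA gene LINC03077, was likewise at 0 in ORF1p RIP, with 9.09, 13.4, 8.92 and 14.6 CPM in ORF2p RIP and 18.1, 22.4 and 20.8 CPM in mock IP, at least 220-fold lower in ORF1p RIP than in mock IP. In the 4 member copies between bases 98588005 and 98593540 the sums were 0.213, 1.12, 0 and 0 CPM in ORF1p RIP, 51.7, 54.5, 54.2 and 50.3 CPM in ORF2p RIP and 80.8, 93.9 and 92.5 CPM in mock IP. In both MER34B and MER57-int the ORF1p RIP libraries did not overlap any other library.

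**Figure D3:**
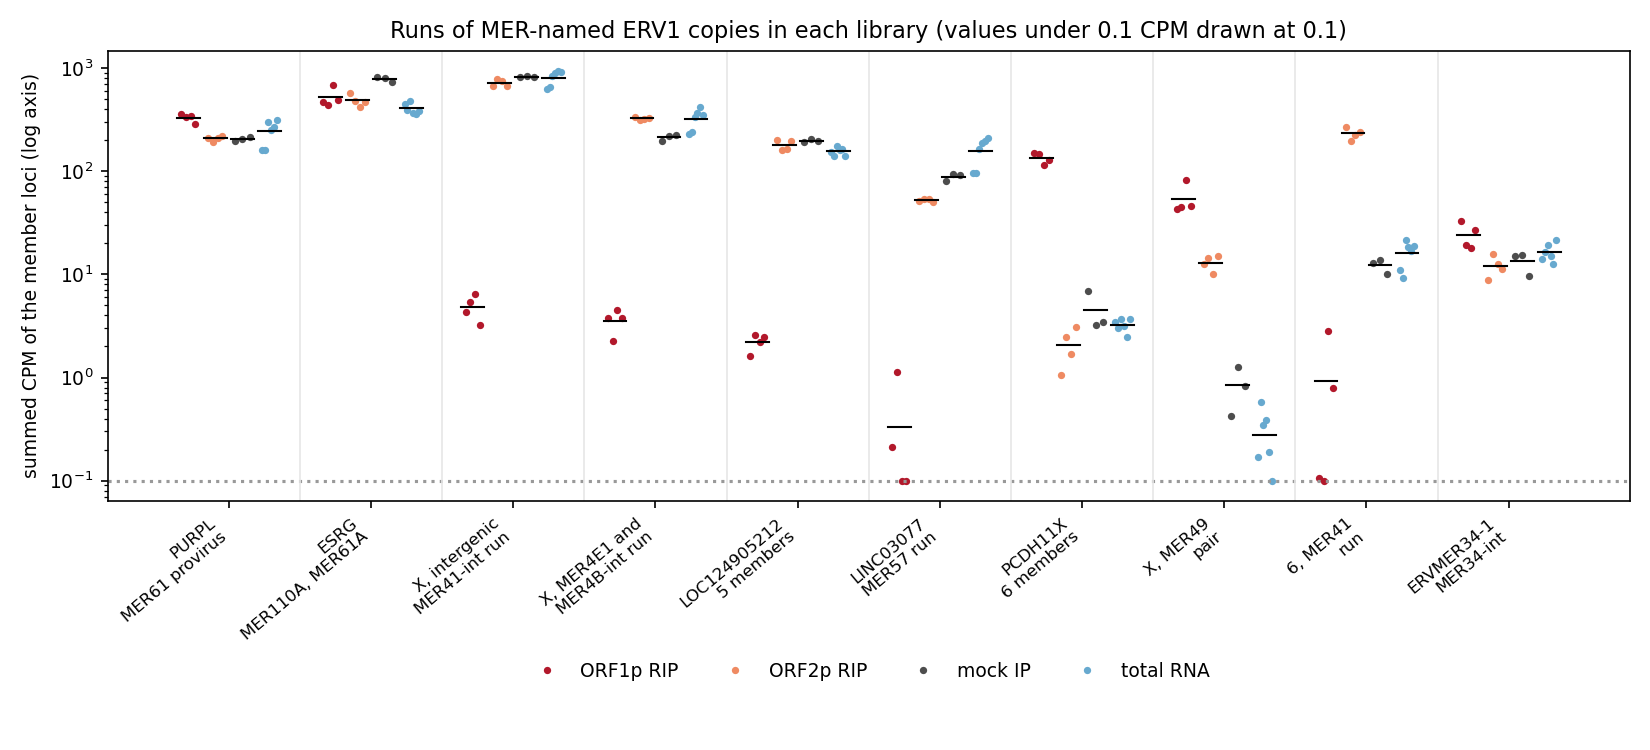
Summed CPM (log axis) of the member copies of 10 runs or gene spans in each library, by group; each point is a library, each black line a group mean, and values under 0.1 CPM are drawn at 0.1. The MER41-int and MER4B-int runs of chromosome X lie below 10 CPM in every ORF1p RIP library and above 100 CPM in every other library, and the PCDH11X and MER49 points are highest in ORF1p RIP.

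Several other copies were high in ORF1p RIP alone, and those given here lie in annotated gene spans. In the span of PCDH11X, a protocadherin gene with a near-identical copy on chromosome Y, 6 LTR copies between bases 92264897 and 92271744 of chromosome X summed to 150.2, 147, 115 and 130.3 CPM in ORF1p RIP, 1.06, 2.46, 1.67 and 3.06 CPM in ORF2p RIP, 6.90, 3.22 and 3.47 CPM in mock IP, and 2.46, 3.31 and 3.71 CPM as the lowest, median and highest in total RNA. One of them, MER92A at bases 92264897 to 92265050, led its subfamily, so the change of MER92A in ORF1p RIP over mock IP was 1.24 with it and -0.04 without it. A MER4-int copy on chromosome 6, bases 160888237 to 160889218, in the spans of LOC107986665 and LOC112267969, had 199.7, 227, 289.9 and 136 CPM in ORF1p RIP, 30.5, 29.5, 29.8 and 32.1 CPM in ORF2p RIP and 40.5, 38.6 and 38 CPM in mock IP. It was higher in ORF1p RIP over mock IP by 2.45 ± 0.32 (adjusted p = 9.76e-07). A MER50 copy on chromosome 13, bases 22893204 to 22893715, in the spans of the non-coding RNA genes LINC00621 and LOC105370109, had 120.4, 106, 63.8 and 89.0 CPM in ORF1p RIP, 9.16, 5.27, 4.58 and 7.16 CPM in ORF2p RIP and 13.7, 7.94 and 11.8 CPM in mock IP, a change of 3.09 ± 0.41 (adjusted p = 1.57e-06).

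A pair of MER49 copies on chromosome X, at bases 106475783 to 106476065 and 106476136 to 106476552, was high in both pull-downs and close to 0 elsewhere. Their sums were 43.1, 45.2, 82.7 and 46.5 CPM in ORF1p RIP, 12.7, 14.4, 10.2 and 15 CPM in ORF2p RIP, 0.427, 1.28 and 0.826 CPM in mock IP, and 0, 0.268 and 0.584 CPM as the lowest, median and highest in total RNA. The changes over mock IP of the MER49 copies were 6.01 and 5.93 in ORF1p RIP and 3.66 and 4.18 in ORF2p RIP. Both copies were named for the size of the change in ORF1p RIP, so these values are descriptive. Outside ORF1p RIP they had at most 8.46 and 8.95 CPM in any library. They thus passed the filter on low counts through ORF1p RIP alone, which fixed the direction of their change in that pull-down. A MER4A1_ copy in the span of GUF1, a mitochondrial translation factor gene, on chromosome 4, bases 44700150 to 44700713, was also higher in both, with 54.6, 55.1, 125 and 50.7 CPM in ORF1p RIP, 49.8, 52.3, 42.3 and 45.0 CPM in ORF2p RIP and 15.7, 12.7 and 16.8 CPM in mock IP. The changes of MER4A1_ over mock IP were 2.24 ± 0.37 in ORF1p RIP (adjusted p = 1.87e-05) and 1.65 ± 0.36 in ORF2p RIP (adjusted p = 0.000852).

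A further set was high in ORF2p RIP and low in ORF1p RIP. On chromosome 6, a MER41A LTR at bases 140194956 to 140195417 had 197, 156, 182 and 178 CPM in ORF2p RIP, 0.107, 0, 2.83 and 0.570 CPM in ORF1p RIP, 5.46, 6.27 and 4.98 CPM in mock IP, and 2.60, 8.30 and 10.5 CPM as the lowest, median and highest in total RNA. The MER41-int copy that abuts it had 67.4, 32.9, 41.0 and 61.6 CPM in ORF2p RIP and 1.92, 3.20 and 1.45 CPM in mock IP. Both MER41A and MER41-int stood above every mock IP library in each ORF2p RIP library, by 5.0 ± 0.77 (adjusted p = 3.2e-05) and 4.52 ± 0.48 (adjusted p = 6.79e-07). Both copies were named for the size of this change, so these p-values are descriptive. The MER41-int copy had at most 3.44 CPM in any library outside ORF2p RIP. It thus passed the filter on low counts through ORF2p RIP alone, which fixed the direction of its change. A MER41B LTR on chromosome 4, bases 87932762 to 87933395, had 223, 264, 277 and 231 CPM in ORF2p RIP, 3.31, 6.17, 0.483 and 5.24 CPM in ORF1p RIP and 36.1, 44.8 and 39.3 CPM in mock IP, so that the pull-downs lay on either side of mock IP. In MER41B as a subfamily, the change in ORF2p RIP over mock IP was 0.41 with this copy, which was not called, and -0.21 without it. MER41B was called higher in ORF2p RIP over ORF1p RIP, at 1.12 ± 0.15 (adjusted p = 9.36e-06) with the copy and 0.42 without it.

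In addition, a MER110A LTR on chromosome X, bases 111553512 to 111553611, had 275, 232, 227 and 254 CPM in ORF2p RIP, 2.75, 3.09, 7.31 and 3.15 CPM in ORF1p RIP and 19.2, 19.4 and 20.6 CPM in mock IP. Its change in ORF2p RIP over mock IP was 3.65 ± 0.41 (adjusted p = 1.35e-06). MER92B in the span of MED21, a Mediator subunit gene, on chromosome 12, bases 27032569 to 27033137, had 175, 147, 179 and 137 CPM in ORF2p RIP, 13.2, 11.9, 13.8 and 13.9 CPM in ORF1p RIP and 18.7, 24.2 and 19.2 CPM in mock IP. MER92B was higher in ORF2p RIP over mock IP by 2.94 ± 0.27 (adjusted p = 1.54e-07). On chromosome 4 a MER84 LTR at bases 145710886 to 145711373, beside a MER50-int copy at bases 145708311 to 145710059, had 53.2, 67.7, 67.6 and 51.2 CPM in ORF2p RIP, 0.213, 0.125, 0.161 and 0 CPM in ORF1p RIP and 24.3, 21.1 and 25.5 CPM in mock IP.

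The MER61 provirus at the start of PURPL kept both LTRs. The internal part at bases 27472715 to 27477542 of chromosome 5 had 239.9, 231, 195 and 169.7 CPM in ORF1p RIP, 102, 124, 127 and 122 CPM in ORF2p RIP, 123, 143 and 131 CPM in mock IP, and 115, 183 and 229.5 CPM as the lowest, median and highest in total RNA. The ORF1p RIP libraries were above all ORF2p RIP and mock IP libraries. The change of this MER61-int copy was 0.66 ± 0.27 in ORF1p RIP over mock IP (adjusted p = 0.0313), short of 2-fold, and -0.81 ± 0.25 in ORF2p RIP over ORF1p RIP (adjusted p = 0.00571). Per kilobase of copy, the LTR at the gene's start, which holds the half-site pair shown above, had 7.40 CPM per kb in ORF1p RIP, 11.1 in ORF2p RIP, 7.28 in mock IP and 4.47 in total RNA. The LTR at the other end had 273, 196, 158 and 163 CPM per kb in the same order of groups. In each group the LTR at the other end was thus much the more abundant per length. The MER61D copy in the LOC105376065 window was near 0 in ORF1p RIP, at 0.125, 0.125, 0.161 and 0 CPM, with 6.33, 1.99, 7.98 and 3.26 CPM in ORF2p RIP and 4.26, 3.79 and 5.43 CPM in mock IP.

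The copies of the other printed windows differed from each other. The MER66-int copy at PLAC4 had 0.320, 0, 0 and 0 CPM in ORF1p RIP, 5.85, 5.53, 4.29 and 4.28 CPM in ORF2p RIP and 9.28, 7.59 and 7.16 CPM in mock IP, and so was all but absent from ORF1p RIP. The MER61-int copy at LINC01515 starts at base 65571437 and so holds only the last run of capitals in that window. This copy had 7.12, 5.64, 12.3 and 9.16 CPM in ORF1p RIP, 8.10, 10.2, 7.20 and 9.75 CPM in ORF2p RIP and 3.29, 4.81 and 3.57 CPM in mock IP, with both pull-downs above mock IP. In the third window with a tested copy, that of LOC124903307, the MER57A-int copy had 0, 0, 0.483 and 0 CPM in ORF1p RIP, 6.10, 5.04, 8.48 and 4.52 CPM in ORF2p RIP and 8.97, 8.50 and 7.81 CPM in mock IP. In the span of ESRG, a long non-coding RNA of human pluripotent cells that itself lies within CACNA2D3, a MER110A and a MER61A copy summed to 466, 440.0, 686 and 493 CPM in ORF1p RIP, 582, 479, 419 and 474 CPM in ORF2p RIP, 827, 813 and 735 CPM in mock IP, and 362, 389 and 484 CPM as the lowest, median and highest in total RNA. The mock IP libraries lay above all others in this sum. The copies differed. MER110A averaged 219 CPM in ORF1p RIP and 512 CPM in mock IP. MER61A averaged 303 CPM in ORF1p RIP and 279 CPM in mock IP. In the span of ERVMER34-1, the gene of an envelope protein of retroviral origin, 3 MER34-int copies summed to 32.6, 19.2, 18.2 and 27.3 CPM in ORF1p RIP, 8.87, 15.7, 12.6 and 11.2 CPM in ORF2p RIP, 15.1, 15.5 and 9.77 CPM in mock IP, and 12.7, 15.8 and 21.7 CPM as the lowest, median and highest in total RNA. The ORF1p RIP libraries were above all ORF2p RIP and mock IP libraries there and overlapped total RNA.

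How general the pattern of low ORF1p RIP was could be seen in the 557 member loci with at least 5 CPM in total RNA, a choice made after the data were seen and on libraries that enter no ratio of a pull-down to mock IP. In ORF1p RIP, 291 of them, 52.2%, were under an eighth of their mock IP level, against 44.4% of all 21107 loci chosen in the same way and 67.9% of 2547 loci of other ERV1 subfamilies. In ORF2p RIP, 1 of the 557, 0.180%, was, against 0.218% of all 21107. Within 2-fold of mock IP lay 23.7% of them in ORF1p RIP and 72.5% in ORF2p RIP, against 25.7% and 60.4% of all, and the median log2 ratio to mock IP was -3.40 and -0.31. Internal copies were under an eighth in ORF1p RIP in 42.9% of 308 loci and LTR copies in 63.9% of 249. By position, 21.5% of 172 loci in the span of a protein-coding gene were, 58.2% of 165 in the span of another kind of gene, and 71.8% of 220 outside gene spans. These splits by kind and position were made for member loci only. Whether other repeats differ in the same way was not tested.

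**Figure D4:**
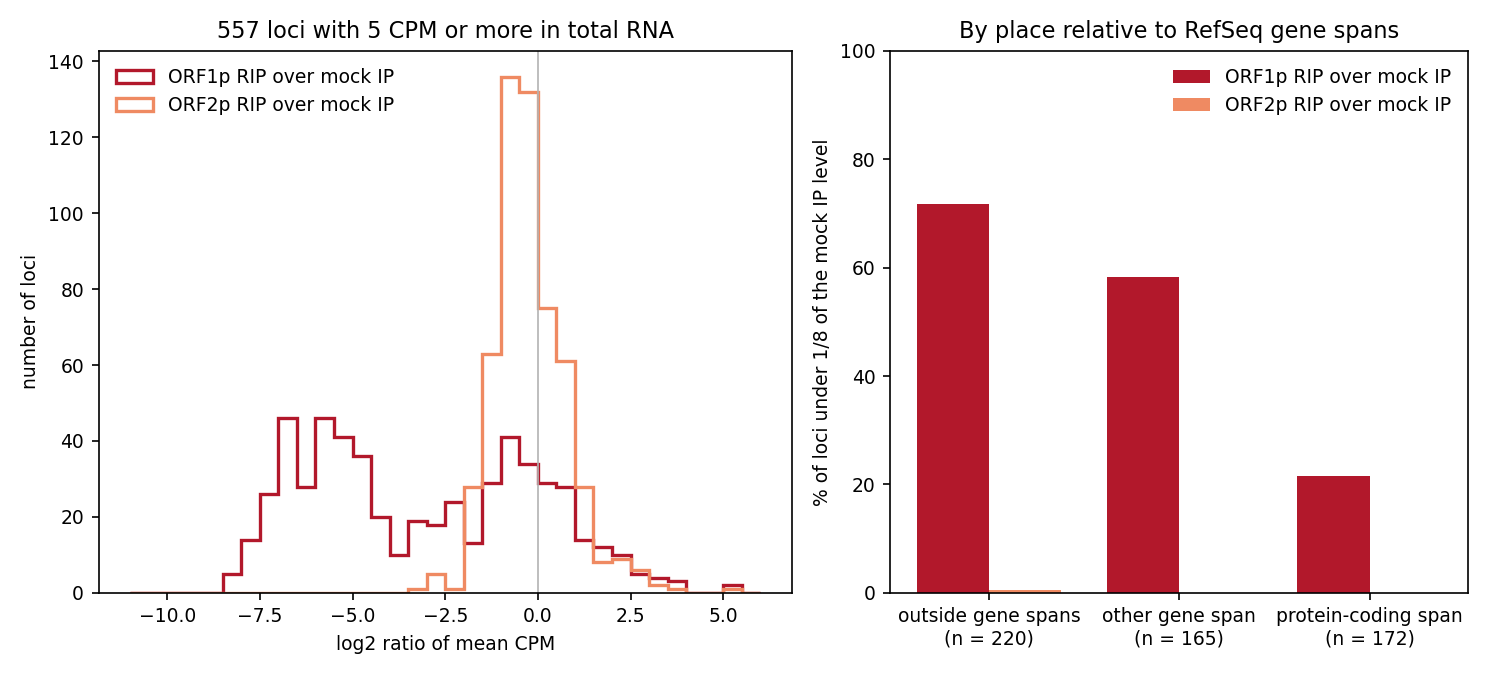
Left, number of member loci by log2 ratio of mean CPM to mock IP, for ORF1p RIP and ORF2p RIP, over the 557 loci with at least 5 CPM in total RNA. Right, percent of those loci under 1/8 of their mock IP level, by position, a split made for member loci only. The ORF1p RIP ratios form a hump far below 0 and another near 0, the ORF2p RIP ratios 1 hump near 0, and 71.8% of the loci outside gene spans are under 1/8 in ORF1p RIP.

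Tested singly, 651 member loci passed the filter on low counts, and through that filter a locus high in 1 group only had to differ, so their counts describe the loci tested and not all copies. In ORF1p RIP over mock IP, 177 were called higher and 351 lower, where 39% and 39.1% of all 30330 loci tested were. In ORF2p RIP over mock IP, 98 were called higher and 91 lower, where 30.4% and 15.2% of all were. ORF2p RIP over ORF1p RIP gave 362 higher and 182 lower, where 46.8% and 29.1% of all were. Against total RNA, 179 were called higher and 377 lower in ORF1p RIP, where 37.8% and 41.6% of all were, and 103 and 164 in ORF2p RIP, where 31.4% and 20.9% were. Mock IP over total RNA gave 21 higher and 36 lower, where 8.28% and 4.11% of all were.

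Single libraries decided or shifted a few values. A MER101-int copy in the span of NIN, a centrosomal protein gene, on chromosome 14, bases 50756557 to 50757011, had 50.1, 50.6, 258 and 76.1 CPM in ORF1p RIP, 7.75, 7.51, 9.85 and 11.6 CPM in ORF2p RIP and 3.30, 1.54 and 2.78 CPM in mock IP, and replicate 3 was the high ORF1p RIP library. The other ORF1p RIP libraries also lay above every ORF2p RIP and mock IP library, so replicate 3 shifted the size of the difference and not its direction. A MER39 copy in the span of the zinc finger gene ZNF292, on chromosome 6, bases 87176090 to 87176611, had 6.40, 6.60, 4.34 and 7.87 CPM in ORF1p RIP, 1.70, 0.860, 0.837 and 1.78 CPM in ORF2p RIP and 8.73, 7.65 and 50.6 CPM in mock IP. The third mock IP library alone set its change of -1.82 in ORF1p RIP over mock IP, which was -0.37 without it (adjusted p = 0.533). MER57F, called higher in ORF1p RIP, had 129, 144, 221 and 119 CPM in ORF1p RIP and 52.4, 64.6 and 62.0 CPM in mock IP, and replicate 3 of ORF1p RIP was again the highest. Its change of -1.12 in ORF2p RIP over ORF1p RIP was -0.89 without that library, short of 2-fold.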

How the data were processed

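RNA of N2102Ep cells was taken with TRIzol, treated with DNase and made into libraries with a kit that removes ribosomal RNA, per the labels' protocols: 4 libraries each for ORF1p RIP and ORF2p RIP, 3 for mock IP and 6 for total RNA. The authors deposited a table of repeat loci whose values look like expected counts, that is estimated and unscaled read counts, a unit read from the values themselves: 68.6% to 86.2% of the values above 0 in a library were whole within a tolerance of 1e-06. The submitters' processing notes name STAR and the build hg38. No source used here names the program that counted reads, so the treatment of reads that fit several near-identical copies is unknown. Of 60 value columns, 43 matched no labelled sample and were not used. Starts were moved by 1 base so that coordinates count from 1.

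Counts were summed per subfamily, rounded, filtered with filterByExpr (min.count 10) and scaled with TMM, and the quasi-likelihood test of edgeR (4.0.16, in R 4.3.3) gave 6 comparisons, fitted once to the 17 libraries with a term for group and no other. Single loci were tested likewise with min.count 100 and the library sizes and factors of the subfamily table. Standard errors were taken as the size of the log2 change over the root of its F statistic. Shares of repeat reads were compared with exact two-sided permutation tests, adjusted over 18 tests. Gene spans and promoter windows are RefSeq's (GRCh38.p14). Intervals and floors cover counting error only.

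The members and lists were chosen with earlier results of these data known. Subfamilies were named from a fixed list, by abundance and by the size of called changes without overlap between libraries, and loci by their share of a subfamily or by the size of called changes; the runs of copies, the copies beside them, the promoter windows and the loci of the MER41-int copy on chromosome X, MER110A on chromosome X, MER41B, MER4-int, MER50, MER61-int and MER84 were picked after their values were seen. Replicate numbers were not shown to pair libraries: deviations from group means correlated at a median of 0.1 (-0.468 to 0.445) in 21 same-number pairs and -0.0578 in the others. This check cannot exclude pairing, since the ranges overlap widely. Alternatives were DESeq2 (1.42.0), library totals without TMM, other filters, no fold minimum, a replicate block, each total RNA series alone, each library left out and the leading locus left out.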

Additional observations from a re-analysis of the deposited data

Results flagged for a closer look

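In 17 of 183 groups of libraries examined, 1 library lay far from the others of its group, where chance gives such a library in about 1 group in 20. Most of these were ORF1p RIP replicate 3, the library that also stood apart from its group over all repeats. As a share of repeat reads, that library held 1.47% in all member copies against 1.74% to 1.78% in the other ORF1p RIP libraries, and 0.750% against 0.947% to 0.968% in LTR copies. In CPM, it was high in MER41-int (718 against 611 to 622), in MER101-int (906 against 506 to 532), in the MER110A copy of the ESRG span on chromosome 3 (347 against 159.8 to 186) and in the MER4A1_ copy on chromosome 4 (125 against 50.7 to 55.1). It was high too in the MER49 copies on chromosome X, with 42.4 CPM against 24.8 to 27 in the copy at base 106475783 and 40.3 CPM against 18.3 to 19.6 in the copy at base 106476136. It had 0 CPM in the MER51C copy on chromosome X, against 0.960 to 1.12, and 0.161 CPM in the MER67D copy on chromosome 12, where the others were at 0.

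Among the other libraries, ORF1p RIP replicate 4 held 1186 CPM in MER4-int against 1426 to 1471 in the rest of its group, and 0.114 CPM in the MER41-int copy on chromosome 6 where the rest were at 0. ORF1p RIP replicate 1 held 0.107 CPM in the MER52A copy on chromosome 21 and 0.107 CPM in the MER65-int copy on chromosome 4, each against 0 in the rest. These values near 0 stand for a single read. ORF2p RIP replicate 4 held 1.55 CPM in the MER92A copy on chromosome X against 0.105 to 0.319, and ORF2p RIP replicate 1 held 22.8 CPM in MER67D against 27.2 to 27.7. Total RNA replicate 3 held 3.44 CPM in the MER41-int copy on chromosome 6 against 1.46 to 1.85.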

How the results depend on the processing

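Depth limits the loci, since a locus with a few reads in a group has no usable fold, and near-identical copies may share reads. Every value below was computed with the cause of a change not tested. With no fold minimum, the calls higher and lower among the member subfamilies were 22 and 46 in ORF1p RIP over mock IP, 12 and 26 in ORF2p RIP over mock IP, 40 and 25 in ORF2p RIP over ORF1p RIP, 19 and 49 in ORF1p RIP over total RNA, 16 and 29 in ORF2p RIP over total RNA and 1 and 3 in mock IP over total RNA. In either direction, that was 68 of 111 members and 555 of all 1078 subfamilies in ORF1p RIP over mock IP. It was 38 and 349 in ORF2p RIP over mock IP, and 65 and 605 in ORF2p RIP over ORF1p RIP. Against total RNA it was 68 and 620 in ORF1p RIP, 45 and 415 in ORF2p RIP and 4 and 26 in mock IP. For library totals, single series, min.count 50 and DESeq2 no count over all repeats is given, so those member counts stand without a background. Without the leading locus of each subfamily, calls were 3 higher and 7 lower in ORF1p RIP over mock IP, 6 higher in ORF2p RIP over ORF1p RIP and 0 lower in ORF2p RIP over total RNA, and the log2 change turned sign in MER34-int (-0.019) and MER92A (-0.0404) in ORF1p RIP over mock IP, MER41B (-0.21) in ORF2p RIP over mock IP and MER51C (0.10) in ORF1p RIP over total RNA. With library totals in place of TMM, calls were 0 higher and 5 lower in ORF2p RIP over mock IP, 8 lower in ORF2p RIP over ORF1p RIP, 2 higher and 19 lower in ORF1p RIP over total RNA, and 0 higher and 6 lower in ORF2p RIP over total RNA, and among loci 167 lower in ORF2p RIP over mock IP and 10 higher and 65 lower in mock IP over total RNA. Against series b alone, subfamily calls were 19 lower in ORF1p RIP, 4 higher and 3 lower in ORF2p RIP and 1 higher in mock IP, and locus calls 98 lower in ORF2p RIP and 7 higher and 6 lower in mock IP. Against series bl alone, they were 4 higher in ORF2p RIP and 4 higher in mock IP for subfamilies, and 71 higher and 122 lower in mock IP for loci. With min.count 50, locus calls higher and lower were 373 and 752 in ORF1p RIP over mock IP, 191 and 249 in ORF2p RIP over mock IP, 739 and 413 in ORF2p RIP over ORF1p RIP, 374 and 799 in ORF1p RIP over total RNA, 215 and 402 in ORF2p RIP over total RNA and 35 higher in mock IP over total RNA, as more loci were then tested. DESeq2 gave 67 loci lower in mock IP over total RNA.

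The replicate block, though the numbers were not shown to pair libraries, gave 0 subfamilies lower in ORF2p RIP over mock IP and 0 loci higher and 0 lower in mock IP over total RNA; the other counts stayed within 1.5 times. Leaving out 1 library at a time gave 5 to 40 loci higher and 3 to 80 lower in mock IP over total RNA, 4 to 7 subfamilies lower in ORF2p RIP over ORF1p RIP (7 without ORF1p RIP replicate 2), 0 to 2 lower in ORF2p RIP over mock IP (0 without mock IP replicate 3 and 2 without ORF2p RIP replicate 2), and 0 to 1 lower in ORF2p RIP and 0 to 1 higher in mock IP over total RNA (moved without total RNA replicate 1 or 2). The difference in the share of repeat reads in all copies against total RNA was -0.257 points after TMM scaling (adjusted p = 0.0857), -0.518 against series bl and -0.602 against series b in ORF1p RIP, and -0.0505 (adjusted p = 0.24), -0.578 and -0.662 in ORF2p RIP; leaving out 1 library gave -0.574 to -0.474 and -0.633 to -0.589. After TMM scaling the sign also turned for ORF2p RIP over ORF1p RIP in all copies (0.207) and internal parts (0.0016), and in ORF2p RIP for internal parts over mock IP (0.0676) and LTRs over total RNA (0.0665). Internal parts in ORF1p RIP over mock IP came to -0.0776 without leading loci and -0.0106 to 0.0332 without 1 library, LTRs in ORF2p RIP over ORF1p RIP to -0.0499 and -0.0087 to 0.0640, and LTRs in mock IP over total RNA series b to -0.157.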
